A study of Mus musculus with 15 samples.

Results

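The glutathione transferases described here are 10 mouse genes, Mgst1, Mgst2, Mgst3, Gsta4, Gstm1, Gstm2, Gstp1, Gsto1, Gstt1 and Gstt3, out of 18193 gene symbols on the array. A probe set is a group of short probes that together measure a transcript, and 16 probe sets were annotated to exactly 1 of these symbols. Both probe sets of Mgst1 are described, and for the other genes the probe set with the highest mean intensity over the 15 arrays was taken. Of the 18193 symbols, 13375 passed the filter on dim signals and were tested, among them all 10 transferases. Mgst1 passed only through arrays outside the control group. Its brighter probe set was above the 40th percentile of its array on 11 of 15 arrays, and on none of the control arrays. The 11 include 3 KO arrays (32.4 to 43.2) and 2 Kd arrays (no higher than 22.9), on which it was still dim.

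Glutathione transferases join the tripeptide glutathione to reactive, electron-poor molecules such as drug metabolites and the aldehydes left by lipid peroxidation, which makes these easier to export. They fall into unrelated protein families: the microsomal enzymes (Mgst genes) are small integral membrane proteins of the MAPEG family, while the alpha, mu, pi, omega and theta enzymes are soluble. Several of their genes are known targets of the transcription factor NRF2, which binds antioxidant response elements, and some respond to the aryl hydrocarbon receptor, AHR.

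The series asked what mouse embryonic fibroblasts express when they lack the histone deacetylases HDAC1, HDAC2 or both, enzymes that remove acetyl groups from histones. Total RNA of male primary fibroblasts was hybridised to Affymetrix Mouse 430v2 arrays, with 5 groups of 3 arrays. In 4 groups the cells carried floxed Hdac1 alleles and, per the series' design text, a retrovirus with the tamoxifen-inducible recombinase Cre-ERT2 and a second retrovirus with a hairpin micro-RNA, either scrambled or against Hdac2, which the sample labels call siRNA. The control group carried the scrambled hairpin and received ethanol. The KO group carried the scrambled hairpin and received 200 nM tamoxifen, which deletes Hdac1. The Kd group carried the hairpin against Hdac2 and received ethanol. The KO/Kd group carried the hairpin against Hdac2 and received tamoxifen. The fifth group, written +/+ tamoxifen, had Hdac1 +/+ cells with tamoxifen, and the labels do not say which viruses these carried. Tamoxifen, Cre activity and Hdac1 deletion therefore cannot be told apart in a comparison of KO or KO/Kd with an ethanol group, nor cell source and virus in a comparison with the +/+ cells. The labels do not give the age of the embryos or whether replicates were separate cultures, so p-values measure only the spread between these arrays, which may be technical.

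The targeted genes followed the labels. The Hdac1 probe set read 3557 ± 101 intensity units in control, 161 ± 19.8 in KO, 3855 ± 105 in Kd, 156 ± 48.6 in KO/Kd and 4472 ± 311 in +/+ tamoxifen (mean ± SD, n = 3 here and for every intensity below). Hdac2 read 7051 ± 449, 7167 ± 617, 958 ± 62.1, 1025 ± 9.88 and 7556 ± 120 in the same order. Array medians lay between 24.1 and 30.7. The 3 KO/Kd arrays stood apart: their highest correlation with an array of another group was 0.959 to 0.965, against at least 0.991 for all other arrays, and within every group arrays correlated at 0.996 or more. All 8 fibroblast markers were measured in every group, with a summed intensity of 161308 to 168009 in control and 192986 to 204285 in KO/Kd. Between control and KO/Kd, the summed intensity of 8 endothelial markers went from 111–124 to 175–213, with 5 of 8 below the 40th percentile on all KO/Kd arrays, that of 8 skeletal muscle markers from 1950–2360 to 355–489, and that of 8 epithelial markers from 436–556 to 345–404. Single genes carried most of each change: Kdr (group means 15.7 and 77.2) among the endothelial, Acta1 (2051 and 265) among the muscle and Krt19 (341 and 223) among the epithelial markers, while other muscle markers such as Myog (18.7 and 35.2) were higher in KO/Kd. Dim markers such as Pecam1 (11.7 and 14) also had an intensity in every group, so these sums do not show that such cells were present. The part of such cells in the results below was not tested. In bulk RNA, fewer cells of a type and less RNA per cell cannot be told apart.

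Loss of both deacetylases left the transferases split. Against control, 7 of the 10 rose in KO/Kd cells (Mgst1, Mgst2, Gsta4, Gstm2, Gsto1, Gstt1 and Gstt3), 2 fell (Mgst3 and Gstm1), and Gstp1 did not pass the test. The rises ran from 0.43 for Gstm2 to 7.15 for Mgst1, as differences of log2(intensity + 16), the scale of every log2 value below. This was limma's test with Benjamini-Hochberg adjustment over all genes and a threshold of 0.05. Over all 13375 genes, 46.2% were called higher and 19.3% lower in this comparison, so that 65.5% passed in either direction. The median difference was 1.36 for the 10 transferases and 0.16 for all genes. Quantile normalization and centring each array on its median set that shift of all genes to about 0 by construction (-0.02 and -0.01), and its source was not tested. Over all genes the 6176 higher and 2585 lower calls became 4317 and 4466 after quantile normalization, and 4690 and 4169 after centring. Among the transferases the split became 6 higher and 3 lower after quantile normalization, where Gstm2 did not pass and Gstp1 was called lower, and 7 higher and 3 lower after centring. The scale mattered in the other comparisons too: over the 8 comparisons made, higher genes were 53.1% to 80.8% of the calls on the deposited scale and 48.3% to 53.3% after quantile normalization.

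**Figure D1:**
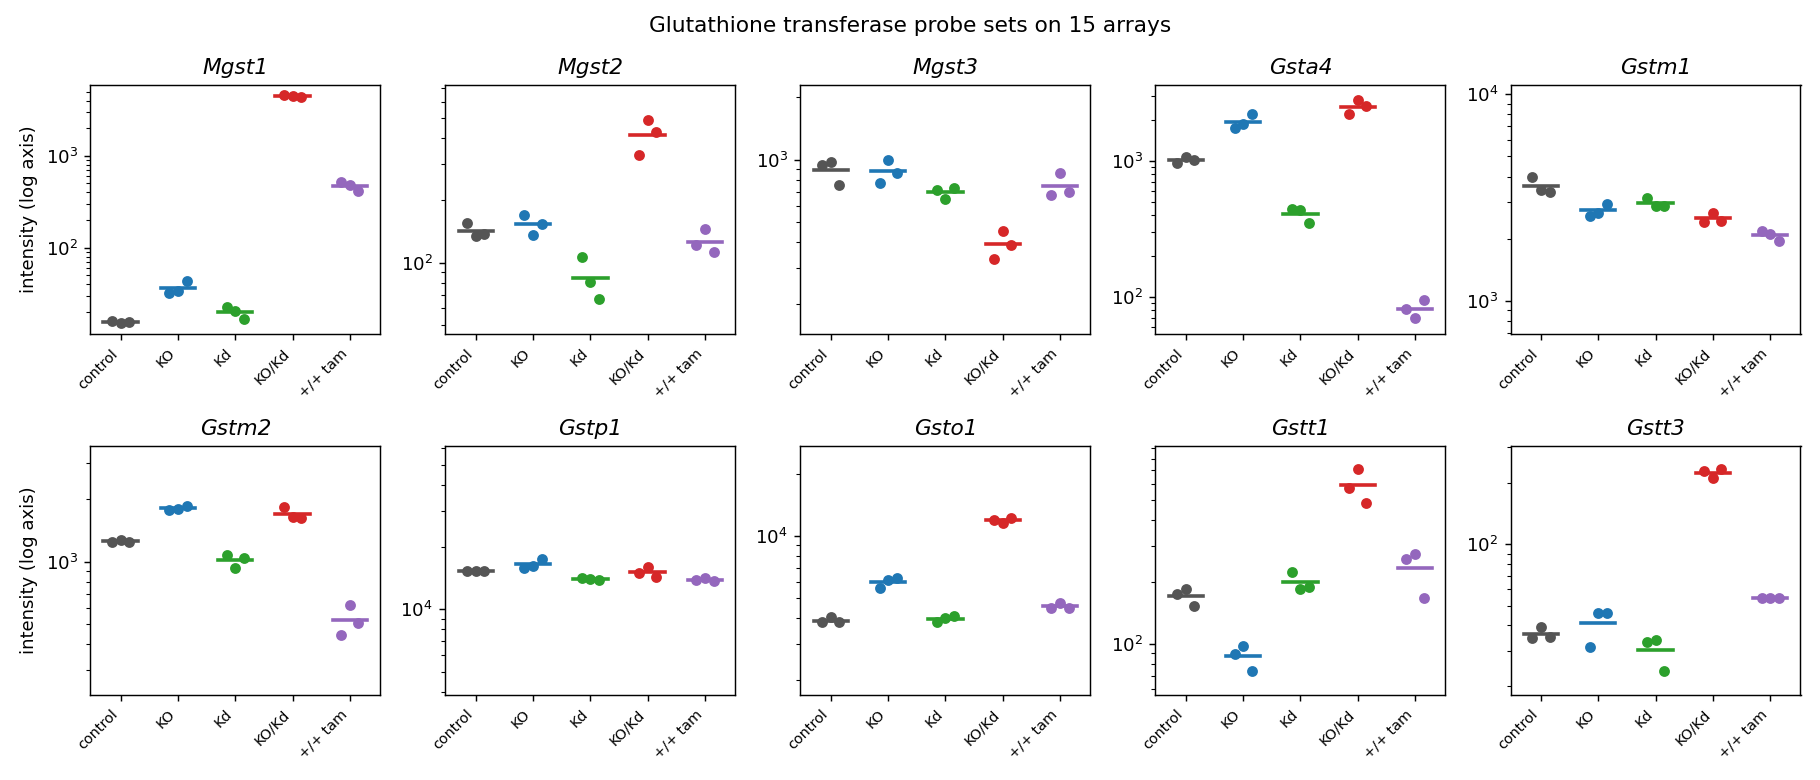
Intensity of each transferase's chosen probe set on every array (points) with the group mean (line), on logarithmic axes that differ between panels, for control, KO, Kd, KO/Kd and Hdac1 +/+ tamoxifen cells, n = 3 each. Mgst1 sits at 15 to 16 in control and at 4385 to 4545 in KO/Kd, while Mgst3 is lowest in KO/Kd and Gsta4 lowest in +/+ cells.

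The sequences just upstream of Mgst1, Gsto1, Gstt1 and Gstt3 are shown because these 4 had the largest rises in KO/Kd among the members. Each is the 250 bases before an annotated transcript start, from RefSeq on build GRCm38.p6, 5′ to 3′ on the gene's strand: Mgst1 at chr6:138140277-138140526 (plus strand), Gsto1 at chr19:47854723-47854972 (plus strand), Gstt1 at chr10:75797732-75797981 (minus strand) and Gstt3 at chr10:75781423-75781672 (minus strand). Mgst1 and Gstt3 have a second annotated start, whose window is not shown. Capitals mark a match to the antioxidant response element core, TGACNNNGC, or to the dioxin response element core of the AHR, GCGTG, on either strand.
Mgst1: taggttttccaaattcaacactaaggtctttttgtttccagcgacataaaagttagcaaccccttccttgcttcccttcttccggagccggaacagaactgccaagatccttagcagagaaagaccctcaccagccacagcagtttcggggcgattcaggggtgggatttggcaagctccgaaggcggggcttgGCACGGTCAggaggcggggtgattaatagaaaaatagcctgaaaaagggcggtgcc
Gsto1: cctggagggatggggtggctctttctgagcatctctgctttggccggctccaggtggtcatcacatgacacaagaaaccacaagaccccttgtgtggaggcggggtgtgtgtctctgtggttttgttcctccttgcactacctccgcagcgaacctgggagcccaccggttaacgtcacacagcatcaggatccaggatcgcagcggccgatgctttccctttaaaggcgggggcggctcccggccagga
Gstt1: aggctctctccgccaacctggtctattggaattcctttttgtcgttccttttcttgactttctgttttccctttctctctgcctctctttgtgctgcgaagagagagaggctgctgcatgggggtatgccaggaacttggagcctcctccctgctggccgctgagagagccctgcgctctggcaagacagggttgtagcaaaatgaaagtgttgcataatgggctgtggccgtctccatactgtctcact
Gstt3: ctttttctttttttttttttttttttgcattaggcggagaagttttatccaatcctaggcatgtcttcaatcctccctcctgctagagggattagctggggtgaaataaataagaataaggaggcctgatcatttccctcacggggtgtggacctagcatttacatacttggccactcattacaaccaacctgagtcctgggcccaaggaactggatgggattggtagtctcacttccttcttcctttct
The antioxidant core was found in the Mgst1 window alone among these 4, on the reverse strand as GCACGGTCA, beginning at position -56 from the start. Searched in windows of 300 bases (250 before to 50 after the start), it was in 1 of the 12 windows of the 9 transferases that had one, against 12.4% of 32851 mouse promoter windows. The dioxin core was in 4 of the 12 windows, those of Mgst3, Gstm1 (both windows) and Gstp1, against 32.4% of all windows. The Gstm1 windows overlap and hold the same site, at -76 from one start and -231 from the other, so these are 3 distinct sites. Both motifs are short, their matches do not overlap in these windows, and a match is a description of the letters, not a bound site. The shares beside them describe all promoters, and no test of the 12 windows was made.

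Mgst1 encodes the microsomal transferase of the endoplasmic reticulum and outer mitochondrial membrane, which also reduces lipid hydroperoxides. Its probe set 1415897_a_at read 16, 15 and 15.6 on the control arrays, 32.4, 34 and 43.2 in KO, 22.9, 20.3 and 16.7 in Kd, 4545, 4480 and 4385 in KO/Kd, and 521, 484 and 410 in +/+ tamoxifen cells. No groups overlapped, and the order from low to high was control, Kd, KO, +/+ tamoxifen, KO/Kd. Control and Kd nearly touched, with 16 as the highest control and 16.7 as the lowest Kd array. How many of all genes had no overlap between groups was not counted. The difference from control was 7.15 ± 0.09 (SE) in KO/Kd (adjusted p = 8.99e-18), 0.73 ± 0.09 in KO (adjusted p = 4.26e-05) and 0.19 ± 0.09 in Kd (adjusted p = 0.256). Because control lay near the bottom of the array, the sizes of these differences depend on the pseudocount. In KO/Kd it was 8.08 with a pseudocount of 1 in place of 16, and 6.98 after quantile normalization. Over 27 alternatives the KO difference ran from 0.64 to 1.17, and that of +/+ tamoxifen cells from control ran from 3.87 to 4.83. The other Mgst1 probe set, 1415898_at, averaged 11.8, was above the 40th percentile on 0 of 15 arrays and was not tested, so the values of Mgst1 rest on 1 probe set. Mgst1 is abundant in liver, and the level of the 7 hepatocyte markers on the array was compared. Their summed intensity was 142 to 165 in control, 164 to 190 in KO, 139 to 164 in Kd, 225 to 295 in KO/Kd and 316 to 353 in +/+ tamoxifen cells. That spread came with Afp, the fetal albumin-like protein, at group means of 44.5, 74.4, 47.7, 137 and 226, while the other 6, Alb among them, had group means of 15.1 to 21.7 in every group.

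Mgst2, which joins glutathione to a lipid to make a leukotriene, moved in opposite directions with the knockdown alone and with the combined loss. It read 156, 134 and 137 in control, 170, 136 and 153 in KO, 106, 80.7 and 66.7 in Kd, 330, 490 and 428 in KO/Kd, and 121, 145 and 112 in +/+ tamoxifen cells. The Kd arrays were all below control and the KO/Kd arrays all above, while control, KO and +/+ tamoxifen overlapped. Against control it fell in Kd (-0.67 ± 0.15, adjusted p = 0.00657) and rose in KO/Kd (1.43 ± 0.15, adjusted p = 2.3e-07), with 0.09 in KO (adjusted p = 0.698). Mgst3, another membrane enzyme that reduces lipid hydroperoxides, went the other way from Mgst1 and Mgst2 in KO/Kd. Its control arrays read 944, 979 and 753, KO 774, 1002 and 862, Kd 716, 643 and 727, KO/Kd 330, 454 and 388, and +/+ tamoxifen 677, 863 and 697. KO/Kd lay below every other array, and the other 4 groups overlapped their neighbours in order. Mgst3 fell by 1.16 on the log2 scale in KO/Kd against control (SE 0.13, adjusted p = 7.09e-07). The differences of Kd (-0.35, adjusted p = 0.111) and KO (-0.02, adjusted p = 0.944) from control did not pass, but Kd passed after quantile normalization (-0.39, adjusted p = 0.0425). A second Mgst3 probe set averaged 14.6, was above the 40th percentile on 0 arrays and was not tested.

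Gsta4, the alpha-class enzyme that clears hydroxyalkenals from lipid peroxidation, was the only member whose 5 groups were separated at every step among the soluble enzymes. It read 968, 1068 and 1011 in control, 1746, 1873 and 2204 in KO, 442, 435 and 346 in Kd, 2226, 2779 and 2510 in KO/Kd, and 80.6, 69.1 and 93.9 in +/+ tamoxifen cells. The order was +/+ tamoxifen, Kd, control, KO, KO/Kd, and the top of KO (2204) and the bottom of KO/Kd (2226) almost met. The share of all genes with 5 separated groups was not counted, so this is a description only. It rose in KO (0.92 ± 0.12, adjusted p = 4.13e-05), fell in Kd (-1.29 ± 0.12, adjusted p = 1.61e-06) and rose in KO/Kd (1.28 ± 0.12, adjusted p = 6.11e-08), each against control. Between KO/Kd and KO the difference was 0.37 ± 0.12 (adjusted p = 0.0135). It did not pass after quantile normalization (0.25, adjusted p = 0.0514), with array weights (0.3, adjusted p = 0.187), without KO replicate 1 (0.29, adjusted p = 0.0686) or without KO/Kd replicate 2 (0.29, adjusted p = 0.0632).

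The mu-class enzymes Gstm1 and Gstm2, whose genes lie side by side and conjugate a broad range of electrophiles, differed in direction. Gstm2 read 1251, 1274 and 1249 in control, 1781, 1803 and 1867 in KO, 1076, 936 and 1043 in Kd, 1843, 1642 and 1621 in KO/Kd, and 443, 616 and 503 in +/+ tamoxifen cells. KO and KO/Kd overlapped and lay above control, Kd lay below it, and +/+ tamoxifen lay below all. Gstm2 rose in KO (0.52 ± 0.1, adjusted p = 0.000915) and KO/Kd (0.43 ± 0.1, adjusted p = 9e-04), though not after quantile normalization for KO/Kd (0.22, adjusted p = 0.0534) nor with array weights for KO (0.53, adjusted p = 0.0542). Its Kd difference, -0.3 ± 0.1, missed the threshold (adjusted p = 0.0552) and passed under 9 of the 27 alternatives. Gstm1 read 3960, 3437 and 3374 in control, 2590, 2674 and 2959 in KO, 3157, 2887 and 2877 in Kd, 2400, 2676 and 2445 in KO/Kd, and 2176, 2111 and 1941 in +/+ tamoxifen cells. Control was above all other groups, and +/+ tamoxifen was below them. Gstm1 fell in KO (-0.39 ± 0.08, adjusted p = 0.00254), Kd (-0.27 ± 0.08, adjusted p = 0.0446) and KO/Kd (-0.51 ± 0.08, adjusted p = 3.31e-05). The Kd call was lost under 14 of the 27 alternatives, furthest without control replicate 1 (-0.2, adjusted p = 0.202), and the KO call with array weights (-0.36, adjusted p = 0.0613). The chosen probe set's name ends in _x_at, Affymetrix's mark for probes that can match other transcripts, so related mu genes may share its signal. Of the other 3 Gstm1 probe sets, 1448330_at gave -0.4, -0.36 and -0.53 in KO, Kd and KO/Kd, and 1425627_x_at gave -0.31, -0.32 and -0.45, all past the threshold when every probe set was tested separately. In that test the chosen probe set passed in KO and KO/Kd but not in Kd (adjusted p = 0.0572). The dim 1425626_at, which averaged 24.6, gave 0.02, -0.1 and -0.1 and did not pass.

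Gstp1, the pi-class enzyme best known for its high level in proliferating and tumour cells, changed least: its group means spanned 0.24 on the log2 scale, against 7.15 for Mgst1. Its means were 15282 ± 40.9 in control, 16518 ± 850 in KO, 14017 ± 139 in Kd, 15084 ± 820 in KO/Kd and 13936 ± 252 in +/+ tamoxifen cells. No comparison with control passed (0.11 in KO with adjusted p = 0.211, -0.12 in Kd with 0.24, and -0.02 in KO/Kd with 0.786). The KO/Kd value depends on the scale, at -0.24 after quantile normalization (adjusted p = 0.000307) and -0.19 after centring on the median (adjusted p = 0.00164), where it was called lower.

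Gsto1, the omega-class enzyme that reduces dehydroascorbate and removes glutathione from proteins, rose with the deletion and rose further with the combined loss. It read 3823, 4033 and 3821 in control, 5601, 6100 and 6268 in KO, 3838, 4005 and 4110 in Kd, 11934, 11509 and 12190 in KO/Kd, and 4462, 4745 and 4478 in +/+ tamoxifen cells. Only control and Kd overlapped among neighbours in the order. Against control the difference was 0.62 ± 0.06 in KO (adjusted p = 5.77e-06), 0.03 ± 0.06 in Kd (adjusted p = 0.827) and 1.61 ± 0.06 in KO/Kd (adjusted p = 2.66e-12). Its second probe set, 1456036_x_at, gave 0.77 in KO, 0.04 in Kd and 1.59 in KO/Kd.

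The theta enzymes Gstt1 and Gstt3, neighbours on chromosome 10 that act on small halogenated compounds and hydroperoxides, shared their rise in KO/Kd but not their response to the deletion alone. Gstt1 read 175, 185 and 153 in control, 89.1, 97.5 and 73.4 in KO, 224, 184 and 190 in Kd, 575, 711 and 488 in KO/Kd, and 259, 274 and 167 in +/+ tamoxifen cells. KO lay below all other arrays and KO/Kd above all, while control, Kd and +/+ tamoxifen overlapped. Gstt1 fell in KO (-0.87 ± 0.16, adjusted p = 0.000982) and rose in KO/Kd (1.69 ± 0.16, adjusted p = 9.97e-08), with 0.2 ± 0.16 in Kd (adjusted p = 0.515). Gstt3 read 34.6, 39 and 35.1 in control, 31.4, 45.7 and 45.8 in KO, 33, 33.9 and 23.7 in Kd, 230, 211 and 235 in KO/Kd, and 54.2, 54.5 and 54.4 in +/+ tamoxifen cells. Its KO and control arrays overlapped, and KO/Kd was far above the rest. It rose by 2.21 ± 0.1 in KO/Kd (adjusted p = 1.83e-11), and neither KO (0.12, adjusted p = 0.46) nor Kd (-0.18, adjusted p = 0.315) passed. Over 27 alternatives the rise of Gstt3 in KO/Kd ran from 1.92 to 2.6.

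With Hdac1 deleted alone, then, 4 transferases were called higher than control (Mgst1, Gsta4, Gstm2 and Gsto1) and 2 lower (Gstm1 and Gstt1), where 19.6% of all genes were called higher and 4.66% lower (24.2% in either direction). The median was 0.11 for the members and 0.08 for all genes, and the split of 4 and 2 was the same after quantile normalization, which turned the 2617 higher and 623 lower calls over all genes into 1873 and 1933. With Hdac2 knocked down alone, limma called 0 transferases higher and 3 lower (Mgst2, Gsta4 and Gstm1; 0 and 5 at an unadjusted p under 0.05), against 7.55% of all genes called higher and 3.04% lower (10.6% in either direction). Here the median was -0.23 for the members and 0.04 for all genes. After quantile normalization 6 were called lower, with Mgst3, Gstm2 and Gstp1 added. The calls over all genes changed as well, from 1010 higher and 407 lower to 1112 and 976. Gsta4 was the member that passed in opposite directions in these comparisons, higher with the deletion and lower with the knockdown. The comparisons with control share the same 3 control arrays.

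**Figure D2:**
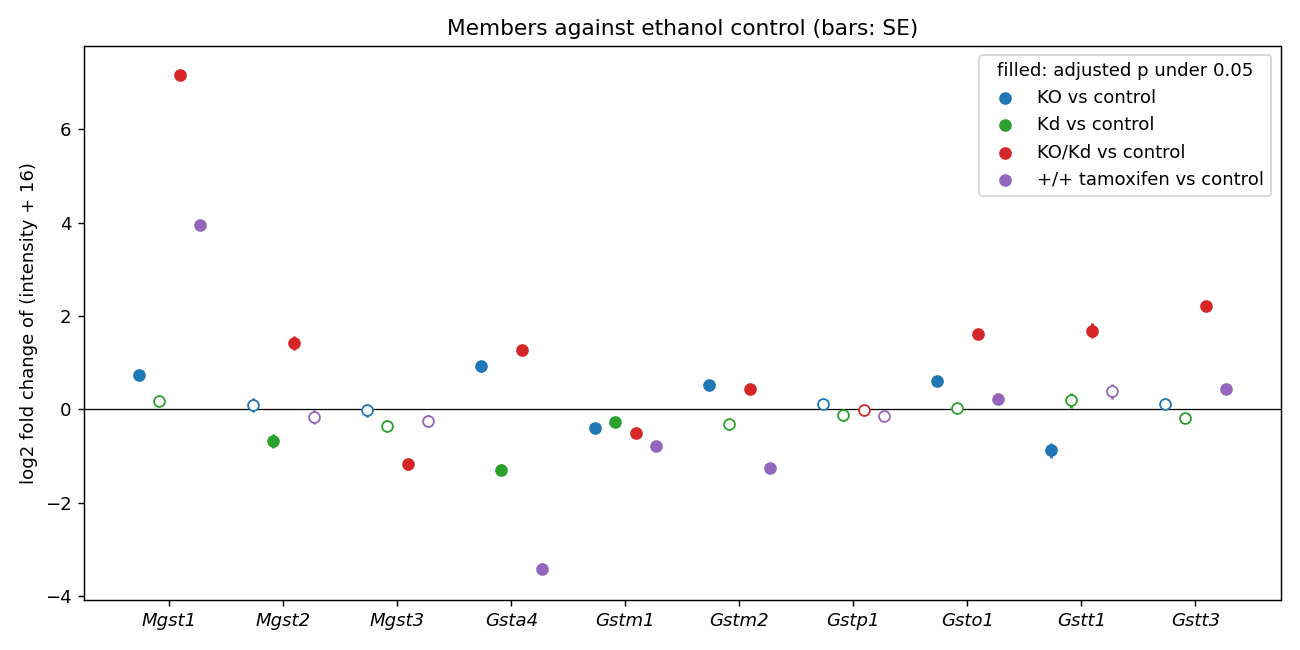
Difference of each transferase from control in log2(intensity + 16), with bars of 1 SE from limma, for KO, Kd, KO/Kd and +/+ tamoxifen cells; filled points passed an adjusted p of 0.05. Mgst1 reaches 7.15 in KO/Kd and 3.94 in +/+ tamoxifen cells, and Gsta4 goes from 1.28 in KO/Kd to -3.41 in +/+ tamoxifen cells; all genes together are shifted by 0.16 in KO/Kd.

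Adding the knockdown to deleted cells, both with tamoxifen, gave 6 members higher and 1 lower in KO/Kd than in KO, with 36.2% of all genes called higher and 20.6% lower (56.8% in either direction). After quantile normalization 5 members were higher and 3 lower, while the 4837 higher and 2761 lower calls over all genes became 4023 and 4175. Mgst1 (6.42 ± 0.09), Gstt1 (2.55 ± 0.16), Gstt3 (2.09 ± 0.1), Mgst2 (1.34 ± 0.15), Gsto1 (0.99 ± 0.06) and Gsta4 (0.37 ± 0.12) were higher, and Mgst3 was lower (-1.14 ± 0.13). Gstm1 (-0.13, adjusted p = 0.199), Gstm2 (-0.1, adjusted p = 0.424) and Gstp1 (-0.13, adjusted p = 0.0799) did not pass. After centring on the median, Gstm1 (-0.22, adjusted p = 0.007) and Gstp1 (-0.23, adjusted p = 0.000513) were called lower as well. Adding the deletion to knockdown cells gave 7 higher and 2 lower in KO/Kd than in Kd, with 42.9% of all genes higher and 20.5% lower (63.4% in either direction). Mgst1 (6.97), Gsta4 (2.58), Gstt3 (2.39) and Mgst2 (2.11) had the 4 largest differences, each with an SE of 0.09 to 0.15. The lower members were Mgst3 (-0.82 ± 0.13) and Gstm1 (-0.25 ± 0.08, adjusted p = 0.0148). The Gstm1 call was lost without _x_at probe sets (-0.18, adjusted p = 0.122), on the mean of its probe sets (-0.14, adjusted p = 0.105), without Kd replicate 1 (-0.2, adjusted p = 0.069) and without KO/Kd replicate 1 (-0.21, adjusted p = 0.0568). Gsta4 and Mgst2, which were called lower in Kd than in control, thus went from their floxed-cell minimum to their maximum. So did Gstt3 (means 30.2 in Kd and 225 in KO/Kd), whose Kd difference from control did not pass.

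Whether the deletion acted differently with and without the knockdown was tested by the interaction, which is the difference of KO/Kd from Kd less that of KO from control. It passed for 7 members, 6 higher and 1 lower, where 25.8% of all genes passed higher and 17.2% lower (42.9% in either direction). The value was 6.24 ± 0.13 for Mgst1 (adjusted p = 1.13e-14), 2.35 ± 0.23 for Gstt1 (adjusted p = 5.4e-07), 2.28 ± 0.15 for Gstt3 (adjusted p = 5.16e-09) and 2.01 ± 0.21 for Mgst2 (adjusted p = 1.04e-06). It was 1.66 ± 0.17 for Gsta4 (adjusted p = 7.83e-07), 0.95 ± 0.09 for Gsto1 (adjusted p = 4.2e-07) and -0.8 ± 0.18 for Mgst3 (adjusted p = 0.0022). These genes departed from a sum of the separate differences on the log2 scale. For Gstm1 (0.14, 95% interval -0.1 to 0.38), Gstm2 (0.21, -0.08 to 0.5) and Gstp1 (-0.01, -0.19 to 0.18) the interaction did not pass.

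The Hdac1 +/+ tamoxifen cells differed from the floxed ethanol control at 6 of the 10 genes. Mgst1 (3.94 ± 0.09, adjusted p = 4.82e-14), Gstt3 (0.43 ± 0.1, adjusted p = 0.00512) and Gsto1 (0.23 ± 0.06, adjusted p = 0.0135) were higher, and Gsta4 (-3.41 ± 0.12, adjusted p = 5e-12), Gstm2 (-1.26 ± 0.1, adjusted p = 8.75e-08) and Gstm1 (-0.78 ± 0.08, adjusted p = 2.91e-06) were lower. Over all genes 21.5% were called higher and 6.94% lower (28.5% in either direction). After quantile normalization 2 members were called higher and 5 lower, while the 2881 higher and 928 lower calls over all genes became 1943 and 2011. The Gsto1 call was lost after quantile normalization (0.13, adjusted p = 0.0591), without +/+ tamoxifen replicate 2 (0.2, adjusted p = 0.0638) and without control replicate 3 (0.21, adjusted p = 0.0515). Gstt1 (0.39, adjusted p = 0.0818) passed without +/+ tamoxifen replicate 3, its lowest array (0.6, adjusted p = 0.00583). KO cells and +/+ cells both had tamoxifen, and in that comparison 5 members were higher in KO (Gsta4, Gstm2, Gstm1, Gsto1 and Gstp1) and 3 lower (Mgst1, Gstt1 and Gstt3), with 12.8% and 11.3% of all genes called (24.1% in either direction). Gsta4 differed by 4.33 ± 0.12 (adjusted p = 2.52e-13) and Mgst1 by -3.21 ± 0.09 (adjusted p = 4.85e-13). The Gstt3 call (-0.32, adjusted p = 0.0349) was lost under 5 of the 27 alternatives: with array weights, without any 1 of the 3 +/+ tamoxifen arrays (adjusted p = 0.0792 to 0.0823), and without KO replicate 1 (-0.19, adjusted p = 0.16). The Gstp1 call (0.24, adjusted p = 0.00787) was lost when only the compared groups were fitted (adjusted p = 0.0677). Cell source, virus and Hdac1 state cannot be told apart in these differences.

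Among non-member genes, those closest to the 3 members of widest range were found from the mean absolute difference of mean-centred log2 values over the 15 arrays. Closest to Mgst1 were Igf2, the fetal growth factor (0.52), Sfrp1, a secreted Wnt inhibitor (0.58), and Itih5, a hyaluronan-binding protein (1.12), against a range of 7.15 for Mgst1 itself. Igf2 read 54.5 ± 14.4 in control, 54.2 ± 9.99 in KO, 69.6 ± 8.51 in Kd, 19085 ± 2031 in KO/Kd and 701 ± 196 in +/+ tamoxifen cells. Like Mgst1 it was highest in KO/Kd and intermediate in +/+ tamoxifen cells, and so was Sfrp1 (39.1 ± 2.67 in control, 2177 ± 389 in KO/Kd, 531 ± 107 in +/+). Itih5 shared the level in KO/Kd (2178 ± 289) but read 23.9 ± 1.89 in +/+ cells and 19.4 ± 2.51 in control. Closest to Gsta4 were the tetraspanin Tspan17 (0.43), the vitamin D receptor Vdr (0.44) and the apoptosis-linked membrane protein Perp (0.46). Perp read 1638 ± 41.6 in control, 3197 ± 324 in KO, 786 ± 5.43 in Kd, 5712 ± 394 in KO/Kd and 426 ± 27.5 in +/+ tamoxifen cells, the same order as Gsta4. Closest to Gstt1 were Rab27a, a GTPase of secretory vesicles (0.25), Nsg1 (0.25) and the matrix protein Npnt (0.26), each lowest in KO and highest in KO/Kd. These genes were chosen for their likeness, so no test was made.

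**Figure D3:**
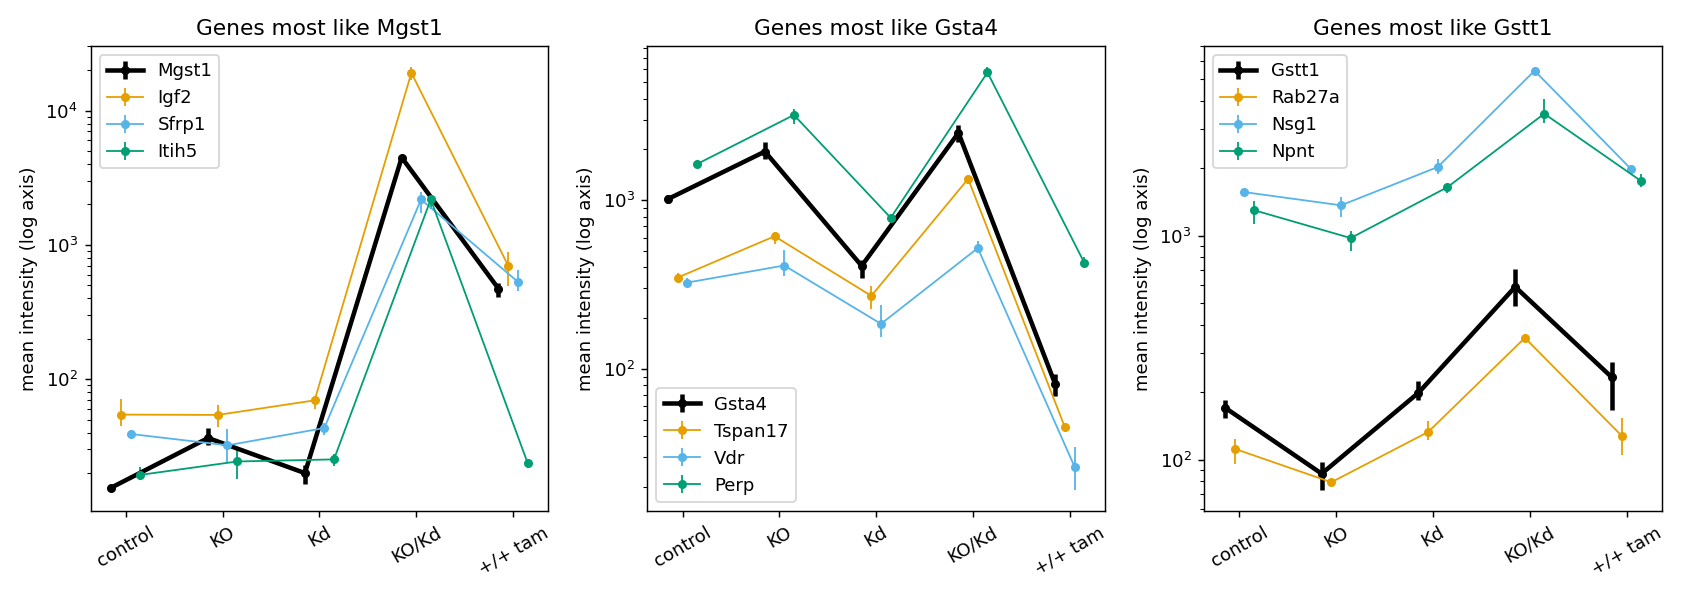
Mean intensity by group (points, bars from the lowest to the highest of 3 arrays, logarithmic axes) of Mgst1, Gsta4 and Gstt1 in black and of the 3 genes nearest to each in colour; heights are not comparable between genes, only the course over groups. Igf2 and Sfrp1 follow Mgst1 in +/+ tamoxifen cells (701 and 531) and Itih5 does not (23.9).

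Lists of related genes were counted in the same way. Of 9 other glutathione transferases tested, 4 were called higher and 1 lower against control, with a median of 0.14 (0.16 for all genes), and after quantile normalization 4 were higher and 3 lower. Gstk1, the kappa enzyme of mitochondria and peroxisomes, rose from 29.8 ± 8.13 to 357 ± 54.3 (3.03 ± 0.17) and was also higher in Kd alone (92.5 ± 23.6, difference 1.24 ± 0.17). It was higher than control in +/+ tamoxifen cells as well (115 ± 27.7, difference 1.51 ± 0.17). Of these 9 genes, 1 was called higher and 0 lower there, beside 21.5% and 6.94% of all genes. The mu genes Gstm6 (14.3 ± 0.848 to 70.6 ± 9.59) and Gstm5 (3721 ± 148 to 8508 ± 518) rose by 1.51 and 1.19, while Gstcd, a protein with a transferase-like domain, fell by 0.81. Gstm6 read 12.7 to 16.7 on every array outside KO/Kd, under the 40th percentiles of the arrays (18.8 to 22.5), so it was tested only through the KO/Kd arrays and its 1.51 depends on the pseudocount. The other MAPEG genes tested were Ptges, the inducible prostaglandin E synthase, which rose by 0.86 in KO/Kd and fell by 0.55 in Kd, and Alox5ap, a dim probe set (15.7 ± 1.69 in control, 20.3 ± 1.46 in KO/Kd) called higher by 0.2 but not after quantile normalization.

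Among genes that make and recycle glutathione, more fell than rose. Of 15 tested genes of glutathione synthesis and recycling, 5 were called higher and 8 lower in KO/Kd against control (median -0.41), and 4 and 10 after quantile normalization. The cystine importer Slc7a11 fell from 164 ± 9.77 to 39.3 ± 7.19 (-1.71 ± 0.15), and Chac1, which degrades glutathione, fell from 1806 ± 159 to 918 ± 387 (-1.04 ± 0.18). Peptidase Anpep (1.7 ± 0.09), Ggct (1.27 ± 0.11) and Oplah (1.16 ± 0.08), which break down glutathione or recycle its glutamate, rose. Oplah, too, lay under the 40th percentiles in control (14.6 to 17.4). In +/+ tamoxifen cells 3 genes of this list were called higher than control and 3 lower, beside 21.5% and 6.94% of all genes. Among them were Ggct (0.68 ± 0.11) and Chac1 (1014 ± 104, difference -0.82 ± 0.18). With Hdac1 deleted alone, limma called 4 genes of this list higher and 0 lower (5 and 1 at an unadjusted p under 0.05), led by Ggct (1.03) and glutathione synthetase Gss (0.65). In the same comparison 19.6% of all genes were called higher and 4.66% lower. After quantile normalization 3 and 3 of the list were called, beside 1873 higher and 1933 lower among all 13375 genes. Among 10 tested glutathione peroxidases and glutaredoxins, 7 were higher and 1 lower in KO/Kd (median 0.27), and 5 and 1 after quantile normalization. Gpx3, the secreted glutathione peroxidase, rose from 37.1 ± 2.66 to 2894 ± 240 (5.77 ± 0.1, adjusted p = 2.14e-16), and it read 46.8 ± 6.1 in KO, 39 ± 8.3 in Kd and 44.6 ± 3.41 in +/+ tamoxifen cells. Of 6 exporters of conjugates, 3 were higher and 2 lower, with Abcg2 at 1.25 and Abcc4 at -1.17, and after quantile normalization 2 were higher and 3 lower. Abcg2 (0.88 ± 0.07) and Abcc4 (-1.07 ± 0.12) differed from control in +/+ tamoxifen cells too. There 2 of the 6 were called higher and 2 lower, beside 21.5% and 6.94% of all genes.

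Other target genes of NRF2 and AHR were split in KO/Kd, 7 higher and 5 lower of 19 (median 0.03), and 6 higher and 9 lower after quantile normalization. The quinone reductase Nqo1, a standard reporter of both factors, fell by 3.09 ± 0.18 from 1129 ± 98.1 to 123 ± 41.5, and the sulfiredoxin Srxn1 and the AHR repressor Ahrr fell by 1.94 each. The epoxide hydrolase Ephx1 (1.26) and the carbonyl reductase Cbr3 (0.94) rose in the same cells. In +/+ tamoxifen cells 3 of the 19 were called higher than control and 7 lower, where 21.5% and 6.94% of all genes were called. Nqo1 (225 ± 49.7, difference -2.26 ± 0.18), Ahrr (-1.08 ± 0.12) and Ephx1 (-0.54 ± 0.06) were lower there, and Tiparp (0.66 ± 0.07) was higher. Srxn1 read 807 ± 43.3 in +/+ tamoxifen cells and 951 ± 40.2 in control. In KO alone limma called 7 of the 19 higher and 0 lower (10 and 0 at an unadjusted p under 0.05), where 19.6% and 4.66% of all genes were called. Ephx1 (0.78), Hmox1 (0.71), Nqo1 (0.56) and Cbr3 (0.5) were among the 7. In Kd alone limma called 0 higher and 5 lower (0 and 7 unadjusted), where 7.55% and 3.04% of all genes were called. After quantile normalization it called 0 and 8. That scaling took the calls over all genes from 1010 higher and 407 lower to 1112 and 976. Ahrr (-1.34), Nqo1 (-1.19), Cbr3 (-0.99) and Tiparp (-0.81) were among the 5. Of 12 regulators of these genes, 10 were higher and 1 lower in KO/Kd (median 0.48), 7 and 2 after quantile normalization, with the repressor Bach2 (1.8) and the small Maf protein Maff (1.39) first. The lists were chosen with earlier results of these data known, and their counts are descriptions, to be read in KO/Kd beside the 46.2% and 19.3% of all genes. Their counts after quantile normalization are to be read beside 4317 higher and 4466 lower calls among 13375 genes.

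**Figure D4:**
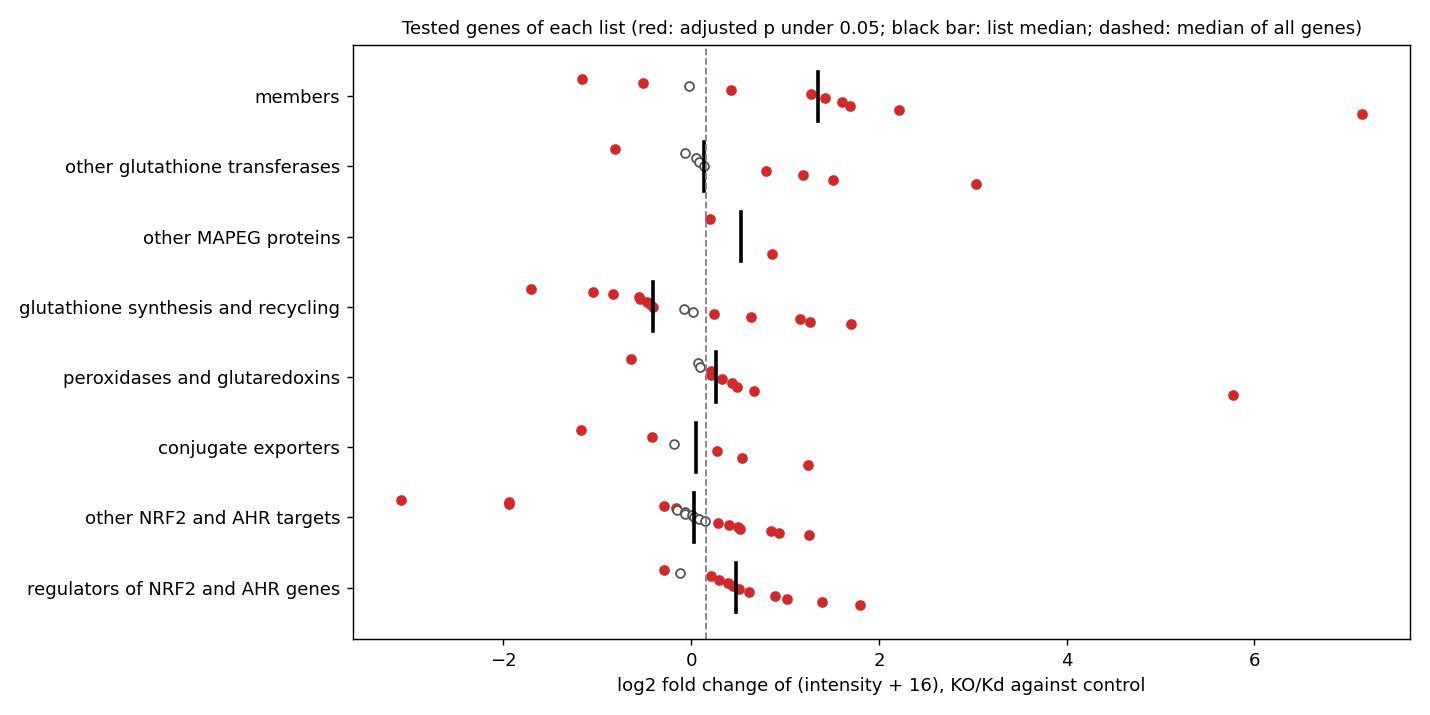
Difference of KO/Kd from control in log2(intensity + 16) for each tested gene (points, red where the limma adjusted p was under 0.05) of the transferases and 7 lists of related genes; black bars mark list medians and the dashed line the median of all genes, 0.16. The transferases' median is 1.36 and that of glutathione synthesis and recycling is -0.41, with Mgst1 (7.15), Gpx3 (5.77) and Nqo1 (-3.09) at the ends.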

How the data were processed

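The deposited table holds linear intensity values of 45037 probe sets on 15 Affymetrix Mouse 430v2 arrays, per the labels' protocols. The authors' summarisation and scaling method was not given in the sources used here. Of these probe sets, 34945 had 1 gene symbol in the platform annotation, 932 several and 9160 none. Intensities were taken as deposited and converted to log2(intensity + 16). For each gene the probe set with the highest mean was kept if it exceeded the 40th percentile of its array on at least 3 arrays, which left 13375 genes. All 5 groups were fitted together, 1 coefficient per group, with limma 3.58.1 in R 4.3.3 (lmFit, eBayes), and p-values were adjusted by Benjamini-Hochberg over all genes per comparison at a threshold of 0.05. The fit was tested on simulated data. No 2 arrays were identical, and the median standard error of a difference of 2 groups was 0.0868 on the log2 scale. Precision is limited by having 3 arrays a group. The files as used here hold no detection flags or scan dates. Named genes are the 10 members, Hdac1 and Hdac2, up to 4 called genes of each list with the largest change in a comparison, and the 3 genes most like each of the 3 members of widest range. The members and lists were chosen with earlier results of these data known. Other scalings, filters, pseudocounts, probe set rules, weights and left-out arrays were tried as alternatives. Arrays that shared a replicate number did not deviate together from their group means (median correlation of these deviations -0.0112), so the main fit has no block. Protein sequences were not used here.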

Additional observations from a re-analysis of the deposited data

Results flagged for a closer look

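For 7 of the 10 transferases the effect of the Hdac1 deletion differed between cells with and without the Hdac2 knockdown, by limma's interaction over all genes. The excess in knockdown cells was 6.24 for Mgst1, 2.35 for Gstt1, 2.28 for Gstt3, 2.01 for Mgst2, 1.66 for Gsta4 and 0.95 for Gsto1, and it was -0.8 for Mgst3, all as differences of log2(intensity + 16). Over all genes 42.9% passed this test in either direction. The tamoxifen treatment is part of both differences that the interaction compares. The cause was not tested.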

How the results depend on the processing

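Over 27 alternatives and 80 combinations of member and comparison, 2097 of 2160 values kept their side of the threshold, 34 no longer passed and 29 passed newly. Of the values that passed in the main fit or the alternative, 0 changed sign. Values that passed in neither could change sign and still count as kept, such as Gstp1 in KO/Kd against Kd (0.1, lowest -0.07). The members called in Kd against control were 3, all lower, and became 6, all lower, after quantile normalization and with array weights. Lower calls over all genes in this comparison also went from 407 to 976 after quantile normalization. Their number with array weights is not given here. The cause was not tested. With 1 array left out at a time, the members called ranged from 9 to 9 in KO/Kd against control, 8 to 9 against Kd, 7 to 7 against KO and for the interaction, 6 to 6 in KO, 2 to 3 in Kd, 5 to 7 in +/+ tamoxifen cells and 7 to 8 in KO against these. After the group means were removed, same-numbered arrays of different groups correlated at -0.161 to 0.136. By this measure 6 of 15 arrays correlated best with an array of their own number in another group. The main fit therefore did not treat the numbers as pairs, though these values cannot show how the samples were collected. With the replicate number as a block, 2 members were called in Kd against control, 7 in +/+ tamoxifen cells and 6 in KO against control; Gstm1 no longer passed in Kd (adjusted p = 0.0659) and Gstt1 passed in +/+ tamoxifen cells (adjusted p = 0.0183). Testing each probe set separately was chosen after seeing the data. Low signal limits Mgst1 in control and Kd, which lay near the 40th percentile of the arrays (18.8 to 22.5) or below it.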

Other observations

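The nearest tested genes on either side of the transferases were set beside them, a comparison chosen after values were seen. Of 16 tested neighbours that are not members, 6 were called higher and 1 lower in KO/Kd against control, with a median of 0.11, where 46.2% and 19.3% of all genes were called. The 6 include Gstm6 and Gsto2, which are transferases themselves, and Gstm6 passed the filter only through the KO/Kd arrays. The nearest tested genes to Mgst1 have other genes between, 1 for Dera and 6 for Plekha5. Dera (897 ± 19 in control, 925 ± 20.4 in KO/Kd; difference 0.04 ± 0.08, adjusted p = 0.664) and Plekha5 (0.27 ± 0.08, adjusted p = 0.00593) had differences far below the 7.15 of Mgst1. Next to Gstt3, Ddt, a relative of the cytokine Mif, rose by 1.26 ± 0.08 (adjusted p = 1.32e-09), while Mif, with 2 genes between it and Gstt1, differed by -0.1 ± 0.07 (adjusted p = 0.221). Among the mu genes that were members or their neighbours, Gstm2 differed from control by 0.43 in KO/Kd, Gstm4 by -0.06 (adjusted p = 0.6) and Gstm1 by -0.51. Of the mu genes outside this comparison, Gstm5 differed by 1.19 and Gstm7 by 0.14 (adjusted p = 0.156). Gstm6 was measured above the 40th percentile of the arrays in KO/Kd alone (63.6 to 81.5 there), so its difference is not ranked with these. Beside Gsto1, Gsto2 was higher in KO (0.95 ± 0.17, adjusted p = 0.000952) and in KO/Kd (0.8 ± 0.17, adjusted p = 0.000717) and differed by 0.1 in Kd (adjusted p = 0.798). Gsto2 was dim in control (20.6 to 23.7, near the 40th percentiles of 18.8 to 22.5) and spread from 33.2 to 83.6 in KO. The sizes of its differences therefore depend on the pseudocount. Related genes can share signal on short probes, which the files do not resolve.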
